A study of Homo sapiens with 2 samples.

Results

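MALAT1, its antisense RNA TALAM1 and the neighbouring RNA NEAT1 are 3 of the 14467 genes that have a value in the vesicle RNA of the mast cell line LAD2. The 3 genes were chosen by their identifiers, ENSG00000251562 for MALAT1, ENSG00000289740 for TALAM1 and ENSG00000245532 for NEAT1, after the gap between the strands of the MALAT1 locus had been seen in these values. Their levels, ranks, shares and gaps are given as description only, with no test. LAD2 is an established human mast cell line, here the only one studied, kept in SP34 medium with stem cell factor, 5% CO2 and 37 °C. Its extracellular vesicles, membrane-bound particles that cells shed, were taken on day 4, and their total RNA was sequenced in 2 libraries of 1 group, called replicates 1 and 2. No control, treatment or sample of the parent cells was analysed here, and nothing in the labels says that the libraries came from separate cultures, so their spread may be technical. Each gene has 1 deposited log2 value per library.

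MALAT1 and NEAT1 are abundant long non-coding RNAs of the nucleus. MALAT1 gathers in nuclear speckles, where splicing factors are stored, and NEAT1 is the scaffold of paraspeckles. The 3′ ends of MALAT1 and of the long NEAT1 form are not made by the usual polyadenylation. RNase P cuts the RNA upstream of a tRNA-like fold, the released fold becomes a small cytoplasmic RNA (mascRNA from MALAT1, menRNA from NEAT1), and a triple helix of U-rich and A-rich stretches protects the new end. TALAM1 is transcribed from the strand opposite MALAT1.

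All 3 genes lie on chromosome 11 (GRCh38, the build named hg38 in the submitters' processing notes). MALAT1 spans 65497688 to 65506516 on the plus strand in GENCODE 29, with 8829 exonic bases. TALAM1, which has no GENCODE 29 model, spans 65499312 to 65507432 in RefSeq, or 8121 bases, and its model shares 7205 bases with MALAT1, which is 88.7% of TALAM1 and 81.6% of MALAT1. NEAT1 spans 65422774 to 65445540 on the plus strand, with 22767 exonic bases, and ends 52147 bases before MALAT1 begins. No source used here names the annotation that the authors counted with, so these models and lengths may differ from those behind the values.

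The stretch printed here is the processed 3′ end of MALAT1, chr11:65505997-65506173. It is given as MALAT1 carries it and as TALAM1 would carry the same bases on the minus strand. No value was measured for this stretch alone. The end of the long NEAT1 transcript with the menRNA that follows it, chr11:65445421-65445598 on the plus strand, is shown for comparison. Sequences are DNA letters from the GENCODE 29 transcripts, 5′ to 3′. Capitals mark mascRNA in the MALAT1 line, its complement in the TALAM1 line and menRNA in the NEAT1 line.
MALAT1: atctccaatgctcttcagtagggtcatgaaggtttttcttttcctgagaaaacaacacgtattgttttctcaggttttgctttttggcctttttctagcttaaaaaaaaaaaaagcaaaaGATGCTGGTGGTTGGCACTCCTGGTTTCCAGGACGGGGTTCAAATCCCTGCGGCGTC
TALAM1: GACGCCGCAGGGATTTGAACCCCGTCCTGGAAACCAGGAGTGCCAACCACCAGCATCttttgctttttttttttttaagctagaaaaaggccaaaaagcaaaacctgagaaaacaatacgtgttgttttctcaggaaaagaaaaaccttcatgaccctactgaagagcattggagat
NEAT1: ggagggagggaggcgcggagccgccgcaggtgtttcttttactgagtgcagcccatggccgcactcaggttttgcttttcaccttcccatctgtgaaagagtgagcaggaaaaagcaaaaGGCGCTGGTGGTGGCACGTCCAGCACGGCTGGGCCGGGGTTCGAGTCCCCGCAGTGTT

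In the 120 bases before the small RNA, MALAT1 and NEAT1 share an unbroken run of 16 letters, CTCAGGTTTTGCTTTT. Only the part after CTCAGG belongs to a U-rich stretch of the triple helix. The run ends 36 bases before mascRNA and 41 bases before menRNA. The run was read from the NEAT1 end, so finding it there was fixed in advance. Searched on both strands in the last 120 bases of 53097 genes' longest transcripts, it lay in no other gene. MALAT1 was missed because its longest transcript runs on past mascRNA. The small RNAs, of 57 and 58 bases, have 40 identical positions in an alignment of 59 columns (67.8%). Over the 7158 shared bases of the longest MALAT1 transcript, A made up 31.2% of the MALAT1 strand and 30.1% of the TALAM1 strand. The longest run of A was 13 on both strands. Runs of 8 or more A numbered 2 on the MALAT1 strand and 5 on the TALAM1 strand. Over these bases the strands were therefore close in their share of A, but not in the number of such runs.

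For TALAM1 the deposited log2 value reached 16.85 in replicate 1 and 16.24 in replicate 2. It was the highest gene in both libraries. Its lead over the gene in second place was 2.71-fold in replicate 1 and 1.18-fold in replicate 2. On a linear scale, 2 to the power of the deposited value, TALAM1 stood at 118001 and 77406 units and held 6.73% and 4.18% of the summed value of each library, a mean of 5.46% ± 1.80 (SD, n = 2). With every gene divided by its length the share was 0.937%. Of the linear value of the 819 genes of chromosome 11 with a model, it held 49.0% in replicate 1 and 37.6% in replicate 2. The next highest gene of that chromosome was BEST1, an ion channel gene, at 15.41 ± 0.12. TALAM1 also held 14.0% and 8.59% of the linear value of the 2356 genes typed as antisense. Other genes named as antisense were also among the 10 highest by mean value. VIM-AS1 stood at rank 6 with 15.05 ± 0.26, and TUBA1B-AS1 at rank 8 with 14.85 ± 0.20. Not all of the 10 were of this kind, since the protein-coding gene MRNIP stood at 15.32 ± 0.24. A very high value of an antisense gene was therefore not limited to the MALAT1 locus, and its cause was not tested.

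MALAT1 had 2.77 in replicate 1 and 2.82 in replicate 2, or 6.80 and 7.07 linear units. That put it at place 8122 in replicate 1 and 7817 in replicate 2, and at 7896 of 14467 by the mean. Its share of the summed value was 0.000388% and 0.000382%. MALAT1 thus stood slightly under the median of all genes, which was 3.06 by the mean of both libraries.

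NEAT1 had 2.45 in replicate 1 and 2.42 in replicate 2, or 5.45 and 5.36 linear units. It stood at place 8989 in each library, with 0.000311% and 0.000289% of the summed value. With detection set at 10 linear units in both libraries, TALAM1 was detected and MALAT1 and NEAT1 were not, while 45.5% of all genes were. Both nuclear RNAs lay among genes with few distinct values: 74 other genes, 40 of them protein-coding, had exactly the MALAT1 pair of values, and 22 others, 17 of them protein-coding, exactly the NEAT1 pair. PDK2, a mitochondrial kinase gene, and WDR62, a centrosome gene, were among the 74, and DNAJC5, a chaperone gene of secretory vesicles, was among the 22. Such ties leave no order between MALAT1 or NEAT1 and these genes.

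**Figure D1:**
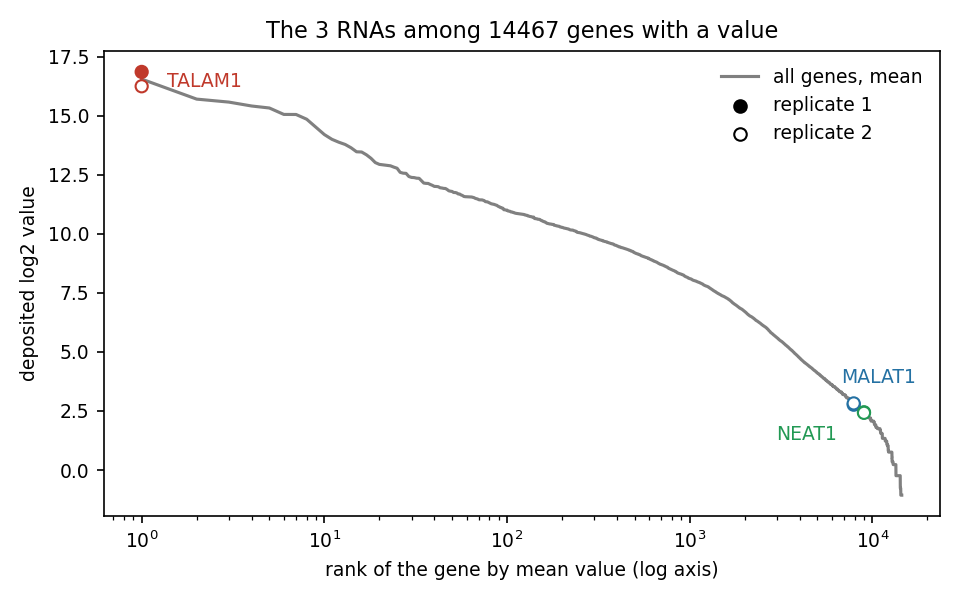
Deposited log2 value (vertical axis) against the rank of each gene by mean value (horizontal log axis), with the mean of all genes as a line and both libraries of the 3 RNAs as points, filled for replicate 1 and open for replicate 2, which nearly coincide for MALAT1 and NEAT1. TALAM1 stands at rank 1, and MALAT1 and NEAT1 lie at ranks 7896 and 8989 on the falling part of the line.

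Levels of different genes are compared per kb of exonic length. Per kb, the log2 value of TALAM1 was 13.83 in replicate 1 and 13.22 in replicate 2, that of MALAT1 was -0.38 and -0.32, and that of NEAT1 was -2.06 and -2.09. TALAM1 stood above MALAT1 by 14.20 log2 units per kb in replicate 1 and 13.54 in replicate 2, a mean of 13.87 ± 0.47 (SD, n = 2). The pair was chosen for this gap, so its size beside the spread of 2 libraries is a description only. Within the pair, TALAM1 held 99.994% of the linear value in replicate 1 and 99.991% in replicate 2.

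NEAT1 minus MALAT1 was -1.69 log2 units per kb in replicate 1 and -1.77 in replicate 2, a mean of -1.73 ± 0.06 (SD, n = 2), so that MALAT1 was 3.31-fold higher. That order rests on the length used. NEAT1 makes a long form of 22743 bases, which carries the processed 3′ end, and a short polyadenylated form, and divided by the 3441 bases of the short transcript ENST00000499732 NEAT1 lay 1.00 log2 unit above MALAT1. The deposited values, with no division by length, differed by -0.36 ± 0.06. Which NEAT1 form the value measures cannot be told from 1 value per gene. A small SD is common to genes of this level. As a measure, the SD over genes of the difference between the libraries was divided by the square root of 2. It was 0.0369 for genes with a mean of 2 to 4 and 0.248 for genes with a mean above 10. This measure leaves out any shift that the genes have in common.

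Division by length also moved TALAM1 from rank 1 to rank 12 of the 13734 genes with a model. The 11 genes above it per kb had exonic lengths of 66 to 1992 bases, all shorter than TALAM1. Per kb, 23.2% of genes lay below MALAT1 and 7.16% below NEAT1, against 44.9% and 37.7% by deposited value. Among 3661 long non-coding RNA genes, whose median was 3.92 by deposited value, TALAM1 was first, MALAT1 was at place 2342 and NEAT1 at place 2599. Per kb their places in that class were 10, 3395 and 3609.

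A further opposite-strand gene lies at the locus. ENSG00000270117, a 396-base long non-coding gene on the minus strand (chromosome 11, 65498010 to 65498405), lies wholly within the first part of the MALAT1 gene and ends 906 bases before the TALAM1 model begins. It had 2.23 in replicate 1 and 2.19 in replicate 2, or 4.68 and 4.56 linear units. Per kb it stood at 3.54, between MALAT1 at -0.35 and TALAM1 at 13.52. TALAM1, on the same strand, stood 14.34 ± 0.40 log2 units higher by deposited value (SD, n = 2) and 9.98 higher per kb. Of these 2 genes annotated on the minus strand, the one that covers the MALAT1 body and its 3′ end had the high value, and the one near the annotated MALAT1 start did not. With 1 value per gene, the RNA cannot be placed along the locus, and which strand it came from is uncertain. NEAT1 has 0 annotated genes on the opposite strand in GENCODE 29, so no value here measures that strand of NEAT1. The 7 small RNA entries inside or between the NEAT1 and MALAT1 genes in that annotation, mascRNA, menRNA and MIR612 among them, had no value in either library.

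**Figure D2:**
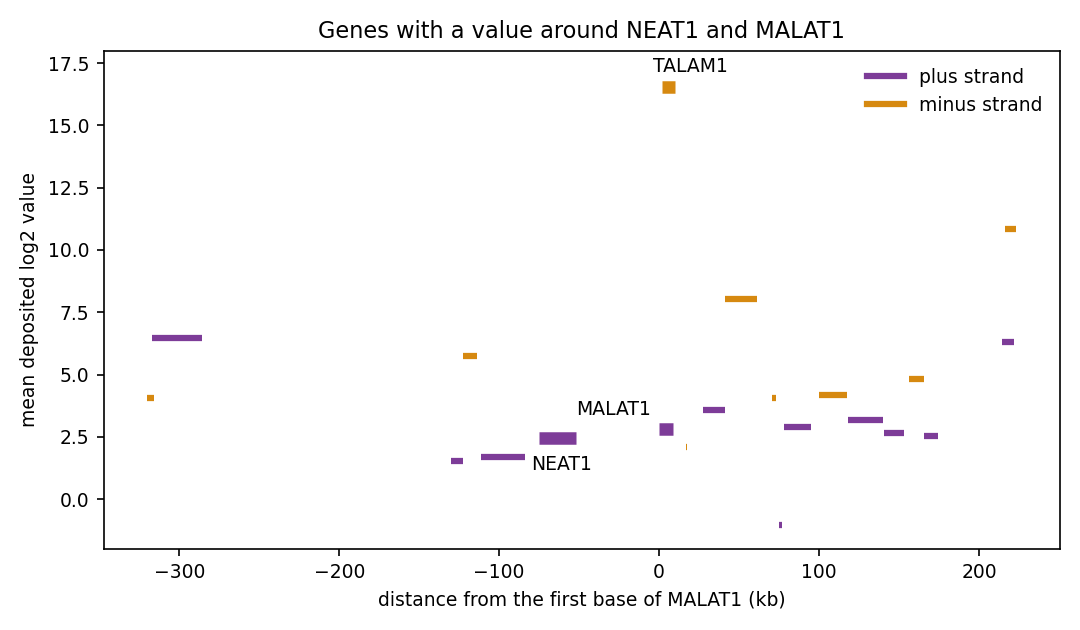
Mean deposited log2 value of both libraries (vertical axis) for the genes with a value around NEAT1 and MALAT1, drawn at their distance from the first base of MALAT1 in kb (horizontal axis), purple for the plus strand and orange for the minus strand, with ENSG00000270117 hidden behind MALAT1. TALAM1 at 16.54 lies far above MALAT1 at 2.79, NEAT1 at 2.43 and the neighbours, which reach 10.85.

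Around the locus, 42 other genes lie within 250 kb of the span from NEAT1 to TALAM1, and 19 of them had a value, 10 of which were detected. Their median was 3.58, against 3.06 for all genes. By strand, the median was 4.18 for the 9 genes on the minus strand and 2.77 for the 10 genes on the plus strand. RNASEH2C, a subunit of an enzyme that removes RNA from DNA hybrids, was highest at 10.85 ± 0.27 (minus strand), and overlaps KAT5, an acetyltransferase gene on the plus strand, at 6.32 ± 0.02. LTBP3, which binds latent TGF-β, stood at 8.01 ± 0.15 on the minus strand, and the calpain gene CAPN1 at 6.47 ± 0.0038 and its opposite-strand gene CAPN1-AS1 at 4.07 ± 0.07. RELA, a subunit of NF-κB, had 4.83 ± 0.01. FRMD8, upstream of NEAT1, had 1.68 ± 0.0085. Per kb, the highest neighbour was RNASEH2C at 8.50, which is below the 13.52 of TALAM1. No neighbour came within 5 log2 units of TALAM1 by deposited value.

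Gaps between genes that overlap on opposite strands place the pair among others. An opposite-strand pair here is any 2 genes with a value that share at least 1 exonic base on different strands, and there were 2899. The median gap between the higher and the lower gene was 3.10 log2 units by deposited value. A gap of at least 10 was reached by 37 pairs (1.28%), TALAM1 and MALAT1 being chosen for theirs, which was 14.08 in replicate 1 and 13.42 in replicate 2, or 13.75 ± 0.47 (SD, n = 2). By deposited value 1 other pair had a wider gap, MRNIP above MRNIP-DT at 13.98 ± 0.25, and these share 194 bases. ENSG00000225339 above the pseudogene RPL35P2 followed at 13.64 ± 0.03, then PAQR3, a Golgi membrane protein gene, above the kinase gene BMP2K at 13.55 ± 0.33, and ENSG00000269604 above FEM1A at 12.20 ± 0.03. MRNIP, ENSG00000225339, PAQR3 and TALAM1 had gaps that differed by less than the SD of the TALAM1 gap, so their order is not settled. Per kb, 7 other pairs had a gap at least that of TALAM1 over MALAT1, and the median was 4.03.

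With both genes being long non-coding RNAs there were 62 pairs, with a median gap of 2.34. Only TALAM1 with MALAT1 and STXBP5-AS1 with ENSG00000227748, at 11.60, reached 10 (3.23%). In 534 pairs the lower gene lay within 0.5 log2 units of MALAT1. The higher gene of these had a median of 6.27 and, leaving out TALAM1, a maximum of 11.91. No source used here states how strand was treated in counting, or whether the NEB library kit, which the labels call a DNA kit, marks the strand of the RNA. Which strand's RNA the TALAM1 and MALAT1 values measure is therefore uncertain, and the part of the strand setting in the gap was not tested.

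**Figure D3:**
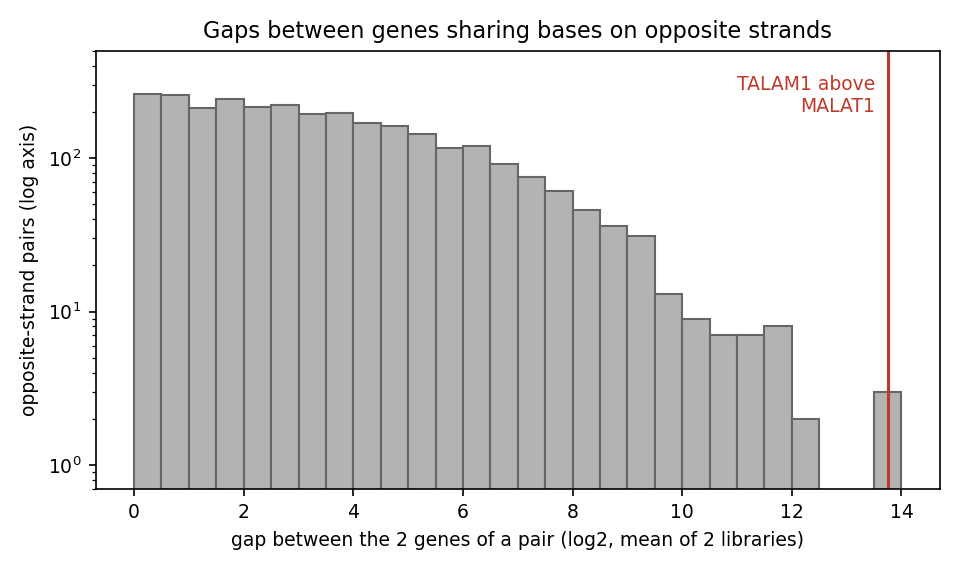
Number of opposite-strand pairs (vertical log axis) by the gap between the higher and the lower gene in log2 units, as the mean of both libraries (horizontal axis). The bars hold the 2898 other pairs, with most gaps under 5, and the line marks TALAM1 above MALAT1 at 13.75.

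Between the libraries, TALAM1 was 1.52-fold higher in replicate 1, MALAT1 1.04-fold higher in replicate 2 and NEAT1 1.02-fold higher in replicate 1. TALAM1 did not reach the 2-fold difference that 13 of 6576 detected genes reached (0.198%). MALAT1 and NEAT1 are not among the detected genes. The largest difference of any other gene within 1 log2 unit of their level was 0.109 for MALAT1 and 0.085 for NEAT1. A 2-fold threshold therefore says nothing about these 2. The direction of TALAM1 was not that of the genes nearest to it in level. All 9 other genes of the 10 highest were higher in replicate 2, by 0.04 to 0.61 log2 units, while TALAM1 differed by -0.61 (replicate 2 minus replicate 1). Of the 41 genes with a mean above 12, 13 were higher in replicate 1, and 6, TALAM1 among them, differed by at least as much as TALAM1 in either direction (14.6%). By the distance between their 2 values, the genes most like TALAM1 were ENSG00000273149 at 15.39 and 16.00, ENSG00000269968 at 15.41 and 15.73, and BEST1 at 15.32 and 15.49. All 3 were lower than TALAM1 in both libraries and moved in the opposite direction.

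MALAT1 differed by 0.06 (replicate 2 minus replicate 1) and NEAT1 by -0.02. Of the 5021 genes within 1 log2 unit of MALAT1, 8.11% had as high a difference towards replicate 2, and 32.3% had as large a difference in either direction. Of the 4975 genes within 1 log2 unit of NEAT1, 82.0% had as large a difference. The direction of MALAT1 rests on the scaling: as shares of the summed value of each library the differences were -0.69 for TALAM1, -0.024 for MALAT1 and -0.10 for NEAT1, all 3 lower in replicate 2. The gap between TALAM1 and MALAT1 was narrower in replicate 2. Shares shift all genes of a library alike, so this gap is the same on either scale by construction.

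**Figure D4:**
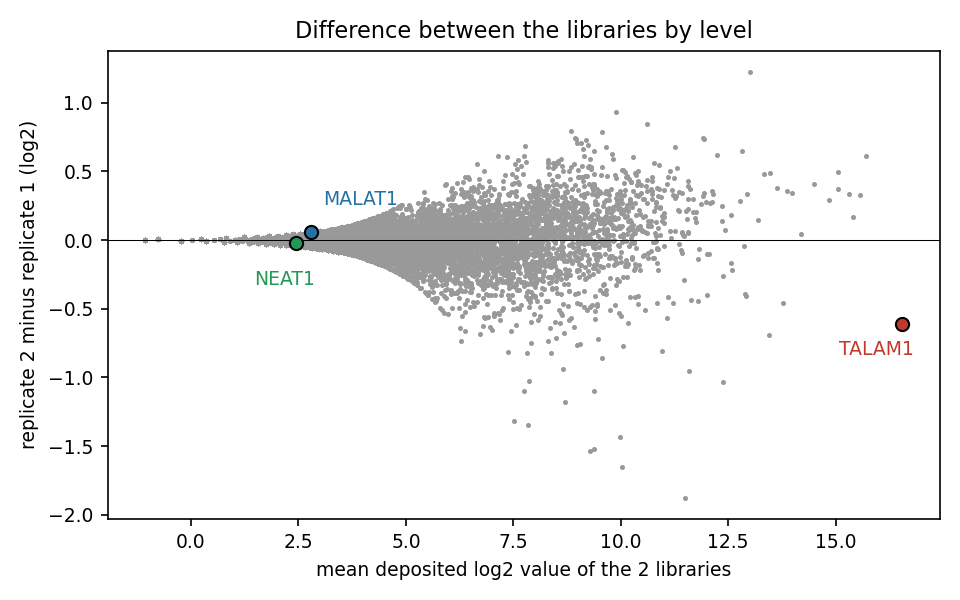
Difference between the libraries, replicate 2 minus replicate 1 in log2 units (vertical axis), against the mean deposited log2 value (horizontal axis), with all genes in grey. Differences narrow towards 0 at low values, where MALAT1 (0.06) and NEAT1 (-0.02) lie, and TALAM1 (-0.61) lies below 0 while the next 9 genes lie above it.

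Genes whose products act with these RNAs are described by list, with the same doubt about strand. Their detected counts stand beside the 45.5% of all genes with a value that were detected. For having a value, the background is 13734 genes with a value and a model, TALAM1 included, beside 58735 gene models of all kinds in GENCODE 29. The share for protein-coding genes alone is not given. Counts of list or marker genes with a value, or without one, are therefore no result about those genes. Of 16 paraspeckle protein genes, 13 had a value and 6 were detected, a share close to that of all genes, with a median of 2.22 against 3.06 for all genes. Among the core proteins that bind NEAT1, SFPQ stood at 5.24 ± 0.02, PSPC1 at 3.84 ± 0.08 and NONO at 2.02 ± 0.0037. The highest was the zinc finger gene ZNF24 at 5.24 ± 0.05, followed after SFPQ by SMARCA4, a chromatin remodeller, at 4.53 ± 0.01 and DAZAP1, an RNA-binding protein, at 4.30 ± 0.08. In 5 of the 13 an opposite-strand gene had a value too, and it was higher in 4. HNRNPK, needed for the choice between the NEAT1 forms, was 2.12 ± 0.02 against 10.64 for HNRNPK-AS1. In all lists, a gene with several opposite-strand genes was set against the highest of them, which favours a higher opposite-strand gene. The share among all genes with an opposite-strand gene is not given, so these small counts cannot be set apart from it.

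Nuclear speckle and splicing genes had a value in 16 of 20 cases, 7 of them detected, with a median of 2.88. ACIN1 stood at 8.59 ± 0.16, the speckle scaffold gene SRRM2 at 6.34 ± 0.12, the splicing factor gene SRSF2 at 5.25 ± 0.02 and HNRNPC at 4.50 ± 0.03. SRSF1, a splicing factor that MALAT1 binds, had no value. SON, the other speckle scaffold, stood at -0.24 ± 0.0047, and the higher of its opposite-strand genes at 9.41. The opposite-strand gene, or the highest of several, was higher in 6 of the 9 cases where it had a value. SRSF2 was among these 6, with MFSD11 opposite it at 11.55, while ACIN1 and SRRM2 stood above their partners, which had 2.86 and at most 3.42.

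Of 15 genes listed for the maturation and stability of the 3′ end, 4 had a value and 3 were detected. TRNT1, which adds CCA to tRNAs and to mascRNA, stood at 10.84 ± 0.12, the RNase P subunit gene RPP38 at 5.94 ± 0.19 and POP5, another subunit of RNase P, at 1.99 ± 0.02. METTL3, at 7.76 ± 0.02, is an RNA methyltransferase gene that was on the list without a known part in making this 3′ end. The opposite-strand gene was higher for METTL3 (TOX4 at 8.64) and RPP38 (7.83) and lower for TRNT1 (CRBN at 7.24). ELAC2, the RNase Z that trims mascRNA, and METTL16, which binds the MALAT1 triple helix, had no value. Of 18 genes of the nuclear RNA exosome, which degrades nuclear RNA, 12 had a value and 6 were detected, with a median of 4.57. EXOSC8 had 10.82 ± 0.01, the helicase gene MTREX 10.33 ± 0.29, the nuclease gene DIS3 8.74 ± 0.11 and EXOSC9 8.45 ± 0.13. In this list the opposite-strand gene was higher in 2 of 7 cases.

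Among 13 other long non-coding RNAs listed here as nuclear, 9 had a value and 6 were detected, with a median of 3.94. Location was not measured, and NORAD and OIP5-AS1 on this list are RNAs of the cytoplasm as well. KCNQ1OT1, an imprinted antisense RNA, stood at 12.20 in replicate 1 and 11.80 in replicate 2, FTX at 9.80 and 9.62, OIP5-AS1 at 6.92 and 7.10, and TUG1 at 4.00 and 4.12. Of the 9, 7 had a mean above that of MALAT1, which stood at place 7896 of all 14467 genes, so many genes of any kind lay above it. An opposite-strand gene had a value for 7 and was higher in 4, among them TUG1, whose higher opposite-strand gene had 8.72. KCNQ1OT1 is itself antisense to the potassium channel gene KCNQ1, which had 1.23, a gap of the same direction as that of TALAM1 over MALAT1.

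**Figure D5:**
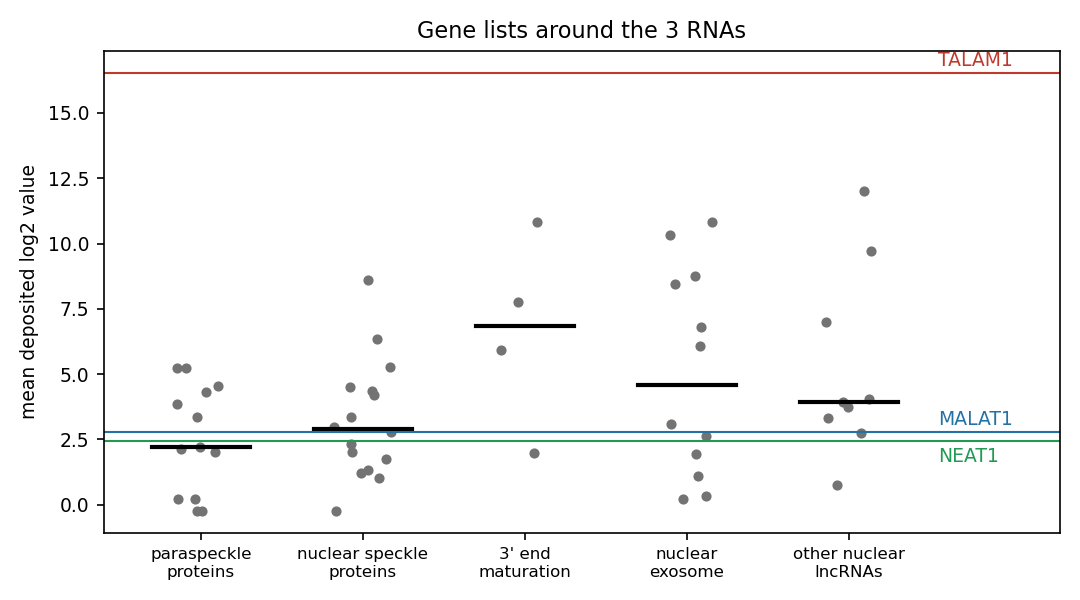
Mean deposited log2 value (vertical axis) of the members with a value in 5 gene lists (horizontal axis), each point a gene and each black bar the median of its list, with lines at the levels of the 3 RNAs. The medians run from 2.22 for paraspeckle proteins to 6.85 for 3′-end maturation, where only 4 genes, METTL3 among them, are plotted. No member plotted reaches TALAM1 (16.54).

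The identity of the material was checked against marker genes. Of 12 mast cell markers, 10 had a value and 3 were detected, GATA2 at 9.03 ± 0.19, SIGLEC6 at 5.50 ± 0.0070 (with an opposite-strand gene at 12.60) and MRGPRX2 at 3.92 ± 0.08. The tryptase gene TPSB2 had 3.02 ± 0.0074 and KIT, the receptor for stem cell factor, 2.19 ± 0.01, both under the detection threshold, and the IgE receptor chains FCER1A and FCER1G had no value. Of the markers of other cells, 3 of 8 had a value for colon epithelium and 1 was detected, 3 of 8 and 1 for monocytes and macrophages, and 4 of 8 and 2 for erythroid cells, where the haemoglobin gene HBA2 was highest at 8.99 ± 0.50. The mast cell median, 2.43, was below the median of all genes, so these values do not single out mast cell RNA. Of 7 vesicle protein genes, 6 had a value and 4 were detected, with CD63 highest at 6.30 ± 0.06. FLOT1 at 3.16 and TSG101 at 1.52 were under the detection threshold, and CD9 had no value.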

How the data were processed

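RNA of LAD2 vesicles was measured in 2 libraries of 1 group. Per the submitters' processing notes, FastQC 0.11.5, STAR 2.6.1a and the build hg38 were used. No source used here names the counting tool, strand setting, annotation or transform. What the authors deposited under the name of counts holds fractions and, in each library, 1029 values below 0, and was read as log2. Differences between the libraries shrink at low values. Sequencing depth is not stated. The summed linear values, 1752860 in replicate 1 and 1851930 in replicate 2, are not read totals, and no interval or floor that needs counts is given.

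Linear values are 2 to the power of the deposited value, and detection means at least 10 in both libraries. The SD is over the 2 libraries. The 3 genes and all lists were chosen with earlier results of these data known. Exonic lengths came from GENCODE 29 and, for TALAM1, from the RefSeq span, and 13734 genes had a model. Symbols were matched for 11066 of 14467 identifiers. Genes named by rule were the 3 genes, the genes nearest to them by value, neighbours within 250 kb, up to 4 highest members per list and the widest opposite-strand gaps. Other named genes, among them the core paraspeckle proteins and list members with no value, were chosen after their values were seen. A few genes that the rule names are left out of the text. With 1 group of 2 libraries no test was made. Python 3.11.15, pandas 2.3.3 and numpy 2.4.6 were used, and the measures were tested on simulated data.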

Additional observations from a re-analysis of the deposited data

How the results depend on the processing

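No paired analysis was possible because all libraries belong to 1 group. Each library alone kept the directions of all 3 gaps, gave TALAM1 rank 1, MALAT1 a rank of 7817 to 8122, and 1 to 3 pairs with a gap at least that of TALAM1 and MALAT1, the pair itself included (2 with both libraries, 8 per kb and 1 with at least 200 shared bases). With 1 added to the linear value, MALAT1 moved to 2.99 and NEAT1 to 2.68. The order of NEAT1 and MALAT1 reversed, to 1.00, with the short NEAT1 transcript as its length, an alternative chosen after seeing the data, which also gave 12.87 for TALAM1 minus NEAT1. Without division by length these gaps were -0.36 and 14.11. With the whole-gene value divided only by the number of bases shared with no opposite-strand gene, they were -4.57 and 18.75. That division changes the length alone, since 1 value per gene cannot be limited to those bases. Per kb, TALAM1 ranked 12, MALAT1 10546 and NEAT1 12751, and their shares were 0.937%, 6.05e-05% and 1.83e-05%. Without the 10 highest genes the shares of MALAT1 and NEAT1 were 0.000504% and 0.000393%. As shares, the differences between the libraries were -0.024 for MALAT1, which turned its direction, and -0.10 for NEAT1. MALAT1 and NEAT1 have no rank among detected genes. Causes of these moves beyond the change of length or sum were not tested. The closeness of the libraries for MALAT1 and NEAT1 is shared by all genes of low value and says little about their error.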
